A study of Mus musculus with 88 samples.

Results

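The proteins described here are clade B serpins, intracellular members of the serpin family of protease inhibitors, and the urokinase receptor Plaur, in mouse dendritic cells given lipopolysaccharide (LPS) or a mock stimulus. A protein group of the trypsin table was taken when its first gene name was Serpinb1a, Serpinb2, Serpinb6, Serpinb6a, Serpinb6b, Serpinb9, Serpinb10, Plaur or Plau. These 9 names were chosen from ratios measured in these same runs (un-normalised M/L, H/L and H/M over the mock and LPS times), so the members' own values are a description, with standard errors and no p-value. Of the 9 names, 6 headed a group among the 6266 groups of the table, and 5 of these groups were among the 5899 kept. The Serpinb6a group was identified by site alone and had no ratio in any run, and no trypsin group was headed by Serpinb6b, Serpinb10 or Plau. The group headed Serpinb6 also carries the name Serpinb6a, which is the current RefSeq symbol of that gene.

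The cells were grown with GM-CSF from bone marrow of female C57BL/6J mice in medium with medium-heavy arginine and lysine (M), pooled, and moved at 0 h into medium with heavy arginine and lysine (H). They then received 100 ng/ml LPS or nothing (mock). The labels give 0 h and 10 later times for each treatment (0.5 h, every hour from 1 to 6 h, and 9, 12 and 24 h) with 2 replicates each, which makes 42 trypsin runs in 21 groups and 84 of the 88 samples. Each run also held an unlabelled mix of cells (L) as a common reference, and 4 further 0 h samples were digested with AspN or LysN. The design text describes harvests up to 12 h, and the handling of the 24 h samples is not described there. The labels do not say that replicates were separate cultures, so errors and p-values may cover technical spread alone.

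In this pulsed labelling M/L is taken as protein made before 0 h (pre-existing), H/L as protein made since (new), and their sum as the total. Each is relative to the reference mix. Both ratios of a run were divided by 1 run factor and are called scaled ratios below. The factor is the run's median total ratio over 2628 proteins measured in every run. A scaled ratio compares 1 protein between runs and says nothing of the level of 1 protein against another. Scaled M/L could also rise with time, so it cannot be read simply as the amount of protein made before 0 h. The cause of such a rise was not tested. That of the cathepsin Ctss was 0.529 and 0.512 at 0 h and 1.25 and 1.42 in mock at 24 h. For Serpinb6 after LPS it rose by log2 0.0325 ± 0.0058 an hour over 0.5 to 12 h. A difference in pre-existing protein below is a difference in scaled M/L, and its cause was not tested. Heavy signal was already present at 0 h, where the median heavy share of all proteins, H/(H+M), was 14.5%, so an H/L near the 0 h value of the same protein is background. A difference is LPS minus mock in log2 units with its standard error (SE) from limma, late over 6, 9 and 12 h (6 runs against 6), early over 1, 2 and 3 h (6 against 6) and at 24 h (2 against 2). A protein was called when its Benjamini-Hochberg adjusted p over all proteins of the comparison was under 0.05. In these comparisons rose and fell mean higher and lower after LPS than in mock at the same times, and not a change from 0 h.

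Serpins inhibit by offering a loop as bait. The protease that cuts it is dragged along and locked in a dead covalent complex. Most clade B serpins lack a classical secretion signal and act in the cytosol and nucleus, where they protect the cell from its own or imported proteases. Serpinb2, also known as plasminogen activator inhibitor 2, can inhibit urokinase, the protease Plau, which binds the GPI-anchored surface receptor Plaur and turns plasminogen into plasmin. Plaur has no cytoplasmic part and works through partners such as integrins and formyl peptide receptors, and Lrp1 takes up the receptor when it holds a urokinase and inhibitor complex.

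All 5 groups had M/L and H/L in all 42 runs, with unequal depth. Serpinb2 rested on 28 peptides and 41 to 63 M/L peptide pairs a run. Serpinb1a had 22 peptides and 8 to 45 pairs, and Serpinb6 25 peptides and 17 to 42 pairs. Plaur had 5 peptides and 5 to 13 pairs, and Serpinb9 8 peptides and 2 to 13 pairs, so their single values are the least precise. Of the Serpinb6 peptides 2, and of the Plaur peptides 2, were unique to the group, and a near-identical protein could share the rest. A run held 68083 to 109064 M/L pairs over all proteins, and log2 run factors lay between -0.68 and 0.69. The highest stood apart and was that of LPS replicate 2 at 12 h, a run of the late LPS arm. The next highest was 0.21 (0 h replicate 2), and mock replicate 2 at 12 h had -0.046.

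The dendritic cell label was compared with marker proteins by the sum of their iBAQ intensities, as a percentage of all M plus H iBAQ of a run. Of 12 dendritic cell markers 7 were found (Itgax, Cd74, H2-Ab1, H2-Aa, H2-Eb1, Cd86 and Cd40) and summed to 0.0497% to 0.0656% at 0 h, while Cd80, Ccr7, Ciita, Flt3 and Zbtb46 were not. Of the 7, H2-Eb1 was at 0 in 29 and Cd86 in 31 of the 42 runs, and the other 5 were above 0 in all. All 13 granulocyte markers were found, at 4.43% to 4.67%, and 8 of 10 listed names of macrophage markers, at 0.894% to 1.18%, and none of 8 lymphocyte markers. In such bulk samples fewer cells of a type and less protein per cell cannot be told apart.

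The starts of the genes that carry the results are printed here from RefSeq (GRCm38.p6), as the 250 bases before the annotated transcription start, 5′ to 3′ on the gene's strand. Serpinb2, Plaur and Serpinb9 are shown because their new protein was higher after LPS, and Serpinb6a because it was not over 6 to 12 h. Of the 9 listed names 7 matched a window, and Serpinb1a and Plau did not. Capitals mark matches on either strand to TGANTCA, an AP-1 motif held by 6.75% of the 32851 windows of this length, or to GAAA, any 2 bases and GAAA, an interferon response motif held by 2.98%. No window of the 4 holds the NF-kB consensus, which 7.25% of all windows hold. The windows are chr1:107511173-107511422 (+) for 1 of 2 overlapping Serpinb2 windows, chr7:24462233-24462482 (+) for Plaur, chr13:33004291-33004540 (+) for Serpinb9 and chr13:34002795-34003044 (-) for 1 of 2 Serpinb6a windows.
Serpinb2: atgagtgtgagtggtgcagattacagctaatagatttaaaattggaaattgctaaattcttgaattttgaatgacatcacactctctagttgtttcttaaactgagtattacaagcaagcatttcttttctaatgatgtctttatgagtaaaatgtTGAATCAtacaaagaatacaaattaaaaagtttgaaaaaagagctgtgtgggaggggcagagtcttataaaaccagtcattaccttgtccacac
Plaur: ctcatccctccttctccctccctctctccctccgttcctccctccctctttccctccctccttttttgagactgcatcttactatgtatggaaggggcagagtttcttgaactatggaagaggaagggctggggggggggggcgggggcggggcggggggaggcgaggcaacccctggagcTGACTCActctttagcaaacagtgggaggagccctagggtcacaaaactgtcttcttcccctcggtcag
Serpinb9: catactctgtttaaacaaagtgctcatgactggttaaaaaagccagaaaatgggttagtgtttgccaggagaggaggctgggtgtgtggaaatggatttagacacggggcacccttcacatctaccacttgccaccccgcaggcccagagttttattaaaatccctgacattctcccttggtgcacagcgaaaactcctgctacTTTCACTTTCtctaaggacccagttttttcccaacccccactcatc
Serpinb6a: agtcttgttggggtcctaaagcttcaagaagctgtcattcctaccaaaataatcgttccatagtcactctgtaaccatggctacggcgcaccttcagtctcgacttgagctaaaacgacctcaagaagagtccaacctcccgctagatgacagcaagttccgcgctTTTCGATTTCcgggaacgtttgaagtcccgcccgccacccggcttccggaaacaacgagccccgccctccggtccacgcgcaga
The AP-1 motif ends 87 bases before the start in Serpinb2 and 62 in Plaur. Serpinb9 and Serpinb6a each hold the interferon motif on the opposite strand, 36 and 74 bases before the start. New Serpinb9 was higher after LPS over 6 to 12 h. New protein of the Serpinb6 group differed little over 6 to 12 h (log2 0.01 ± 0.22) and by log2 1.08 ± 0.38 at 24 h. A link of the motif to these values was not tested. The other Serpinb6a window, chr13:33936084-33936333 (-), holds none of the 3 motifs. A match is a description of the letters and not of binding.

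Serpinb2, the urokinase inhibitor, had the largest difference of the 5 members in new protein. Over 6 to 12 h its H/L was 6.30-fold the mock level (log2 2.66 ± 0.22 SE), its total 2.11-fold (log2 1.08 ± 0.06) and its M/L 1.10-fold (log2 0.14 ± 0.04). The difference in new protein was number 18 of 3316 proteins from the top. The scaled H/L was 0.0699 and 0.107 in the 2 runs at 0 h. In mock runs it stayed near that level throughout, between 0.0549 and 0.142 over all 20 runs.

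After LPS the scaled H/L of Serpinb2 was 0.0992 and 0.0648 at 1 h, 0.168 and 0.134 at 2 h and 0.252 and 0.223 at 3 h. It was 0.366 and 0.336 at 4 h, 0.456 and 0.409 at 5 h and 0.501 and 0.480 at 6 h. From 2 h on the LPS run was above the mock run of the same time and replicate in 16 of 16 pairs, and from 2 h the LPS and mock runs of a time did not overlap. The values then flattened, with 0.599 and 0.563 at 9 h, 0.608 and 0.663 at 12 h and 0.676 and 0.642 at 24 h. The early difference was log2 0.84 ± 0.22. By hour it was -0.04 ± 0.38 at 1 h, 0.92 ± 0.38 at 2 h and 1.64 ± 0.37 at 3 h.

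Total Serpinb2 was 0.489 and 0.506 at 0 h. It reached 1.02 and 1.08 at 12 h and 1.05 and 1.03 at 24 h after LPS, against 0.489 and 0.423 and 0.452 and 0.428 in mock. Mean total at 12 h was thus 2.11 times its 0 h level after LPS and 0.918 times in mock. Of the difference of 0.595 in scaled total at 12 h, H/L made up 0.558 and M/L 0.0373. Pre-existing Serpinb2 differed little, and was higher after LPS in 16 of 16 pairs from 2 h on. At 0.5 h alone it was lower after LPS, 0.294 and 0.287 against 0.369 and 0.349 (log2 -0.31 ± 0.06). Subtracting the heavy signal of the 0 h runs raised the 24 h difference in new protein from 2.39 to 3.97, and the deposited normalised ratios lowered the late one to 1.90.

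**Figure D1:**
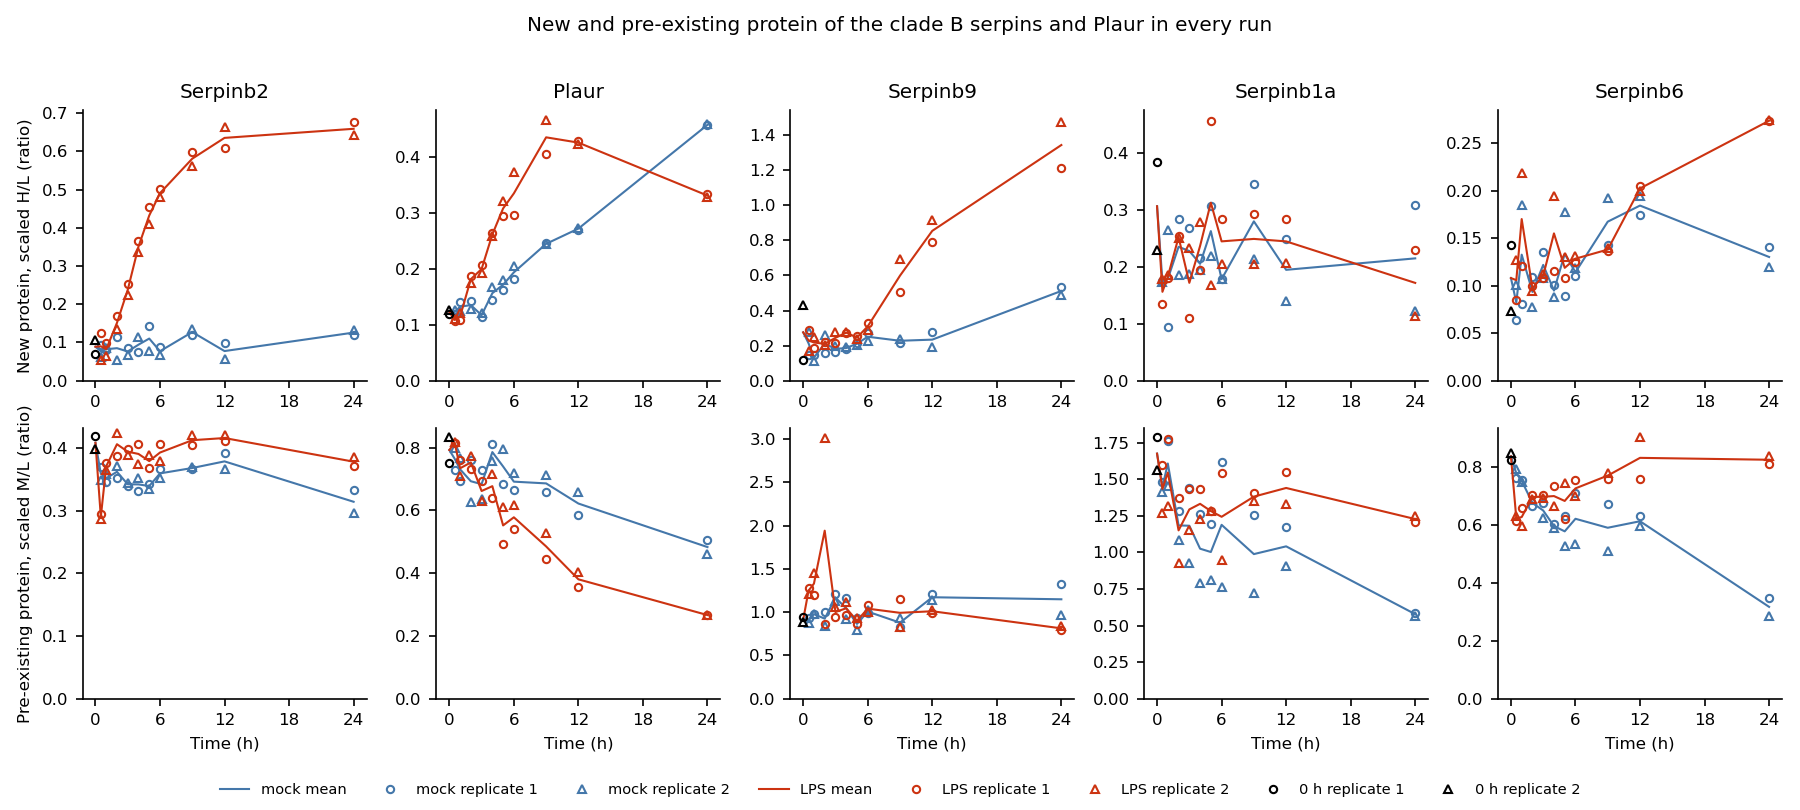
Scaled H/L (top, new protein) and scaled M/L (bottom, protein made before 0 h) against time in hours for the 5 members, as ratios to the unlabelled mix. Circles are replicate 1 and triangles replicate 2, blue mock, red LPS and black 0 h, and lines join the means of 2 runs. Both LPS runs lie above both mock runs in new Serpinb2 from 2 to 24 h, in new Plaur from 2 to 12 h and in new Serpinb9 at 1 h and from 3 to 24 h, while the M/L of Serpinb1a and Serpinb6 at 24 h is lower in mock than after LPS.

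Plaur, the urokinase receptor, had more new and less pre-existing protein after LPS than in mock over 6 to 12 h, and its total differed little over those hours. Over 6 to 12 h its H/L was 1.68-fold the mock level (log2 0.75 ± 0.09) and its M/L log2 -0.49 ± 0.07, with a total difference of log2 -0.04 ± 0.06. The scaled H/L at 0 h was 0.119 and 0.127. After LPS it was 0.187 and 0.175 at 2 h and 0.296 and 0.373 at 6 h, against 0.143 and 0.127 and 0.182 and 0.205 in mock. At each time from 2 to 12 h both LPS runs were above both mock runs, 0.296 to 0.465 (median 0.413) against 0.182 to 0.273 (median 0.244) over 6 to 12 h.

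At 24 h the order of new Plaur was turned in scaled H/L. Its H/M ratio was not turned, at 1.15 to 1.25 after LPS and 0.886 to 0.939 in mock. Mock runs had gone on to 0.456 and 0.457 while LPS runs were at 0.334 and 0.327, below their own values of 0.428 and 0.422 at 12 h (LPS minus mock at 24 h log2 -0.47 ± 0.15). Pre-existing Plaur was 0.752 and 0.834 at 0 h. It came down to 0.357 and 0.403 at 12 h and 0.267 and 0.265 at 24 h after LPS, and to 0.585 and 0.659 and 0.506 and 0.461 in mock. The LPS run was the lower of its pair in 15 of 16 pairs from 2 h on, and from 4 h on the treatments did not overlap at any time.

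Total Plaur in mock was 0.962 and 0.918 at 24 h, close to 0.871 and 0.960 at 0 h. After LPS it was 0.601 and 0.592 at 24 h, 0.652 times the 0 h mean (log2 -0.66 ± 0.10 against mock), and at 12 h too both LPS runs (0.785 and 0.826) were below both mock runs (0.854 and 0.932). The H/M ratio, which needs neither the reference nor the run factor, was higher after LPS over 6 to 12 h by log2 1.24 ± 0.10 and did not overlap with mock, at 0.590 to 1.25 (median 0.914) against 0.267 to 0.451 (median 0.372). On the slope of log2 scaled M/L from 0.5 to 12 h, pre-existing Plaur changed by -0.0905 ± 0.00779 an hour after LPS (a half-time of 11.0 h) and by -0.0186 ± 0.00770 in mock (53.8 h).

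**Figure D2:**
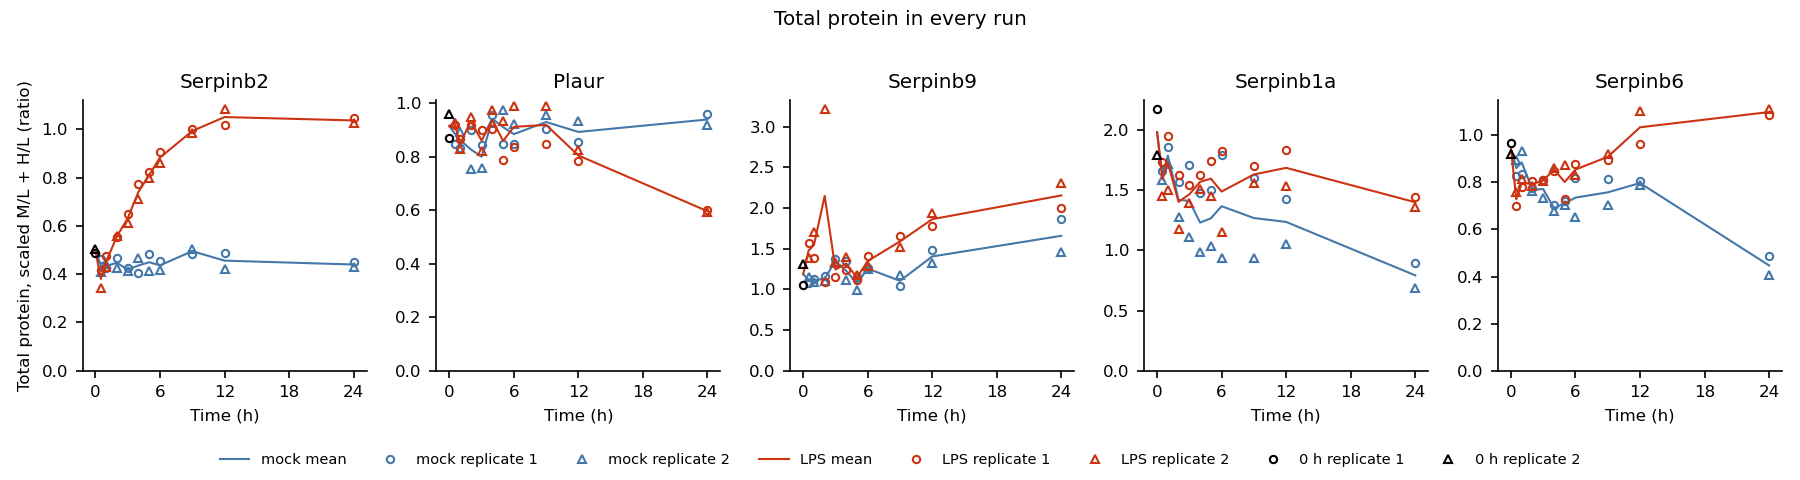
Scaled total protein (M/L plus H/L, ratio to the unlabelled mix) against time in hours for the 5 members, with circles for replicate 1, triangles for replicate 2, blue for mock, red for LPS, black for 0 h and lines through the means of 2 runs. Total Serpinb2 is higher after LPS, total Plaur is lower after LPS at 24 h, and total Serpinb1a and Serpinb6 at 24 h are lower in mock than after LPS.

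Serpinb9, known as an inhibitor of granzyme B that protects antigen-presenting cells and killer cells from that protease, had more new protein after LPS, with the widest gap from 9 h on. Its new protein was 2.29-fold the mock level over 6 to 12 h (log2 1.19 ± 0.23) and above it in 15 of 16 pairs from 2 h on. Both LPS runs were above both mock runs at 1 h and at each time from 3 h on. At 4 h the scaled H/L was 0.270 and 0.278 after LPS and 0.181 and 0.191 in mock, and at 5 h 0.254 and 0.237 against 0.217 and 0.205. At 6 h the scaled H/L was 0.330 and 0.289 after LPS and 0.272 and 0.229 in mock. At 9 h it was 0.504 and 0.694 against 0.215 and 0.240, and at 12 h 0.790 and 0.919 against 0.279 and 0.189. At 24 h it was 1.21 and 1.47 against 0.532 and 0.491 (log2 1.39 ± 0.40). The 0 h runs stood apart from each other, at 0.119 and 0.433, and the LPS values from 1 to 6 h lie between them.

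The M/L of Serpinb9 differed by log2 -0.00 ± 0.17 over 6 to 12 h, with overlapping runs (0.831 to 1.15 (median 1.01) after LPS, 0.822 to 1.21 (median 1.01) in mock). At 24 h it was 0.787 to 0.836 after LPS and 0.965 to 1.33 in mock, without overlap. That difference (log2 -0.48 ± 0.30) was not called, and lay between -0.76 and 0.92 under the alternatives. From 2 h on the M/L was lower after LPS in 11 of 16 pairs. Total Serpinb9 at 24 h was 2.00 and 2.31 after LPS and 1.86 and 1.46 in mock, both above 1.06 and 1.31 at 0 h. Its late total difference was log2 0.35 ± 0.15, with the LPS run higher in 6 of 6 pairs and the 2 sets of 6 overlapping. Summed intensities gave 0.04 for this difference and 2.40 for new protein at 24 h. One value stood far off, the M/L of LPS replicate 2 at 2 h, which was 3.01 from 2 peptide pairs against 0.867 in replicate 1. Without that run the early M/L difference went from 0.34 to 0.04.

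Serpinb1a, an inhibitor of neutrophil elastase, proteinase 3 and cathepsin G, and Serpinb6, known for inhibiting cathepsin G, showed another pattern. With the run factor, the total of both was lower in mock culture at 24 h than at 0 h and higher after LPS than in mock, while new protein over 6 to 12 h differed little between the treatments. Total Serpinb1a was 2.17 and 1.79 at 0 h. At 24 h it was 0.897 and 0.689 in mock and 1.44 and 1.36 after LPS (log2 0.83 ± 0.30). Its mock total at 12 and 24 h against 0 h was log2 -1.01 ± 0.26, number 13 of 3178 from the bottom.

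Total Serpinb6 was 0.967 and 0.922 at 0 h, 0.487 and 0.407 in mock at 24 h and 1.08 and 1.11 after LPS at 24 h (log2 1.30 ± 0.10). Its mock total at 12 and 24 h against 0 h was log2 -0.66 ± 0.09, a direction that the deposited normalised ratios turned to 0.36 while moving the median of all proteins to 0.94. The larger part of the 24 h difference was pre-existing protein. At 24 h the M/L of Serpinb6 was 0.811 and 0.839 after LPS and 0.347 and 0.287 in mock (log2 1.39 ± 0.13), number 6 of 3136 proteins. For Serpinb1a it was 1.21 and 1.25 against 0.589 and 0.566 (log2 1.09 ± 0.32), number 12 of 3136. For both proteins the 24 h treatments did not overlap.

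A difference in M/L was also seen before 24 h. For Serpinb1a it was not called over 6 to 12 h, and was log2 0.17 or 0.59 with 1 replicate left out. Over 6 to 12 h the M/L was higher after LPS by log2 0.36 ± 0.07 for Serpinb6 and 0.38 ± 0.18 for Serpinb1a. The runs of the treatments overlapped over these hours for both. Serpinb6 was at 0.699 to 0.903 (median 0.760) after LPS and 0.509 to 0.708 (median 0.612) in mock. Serpinb1a was at 0.945 to 1.55 (median 1.38) and 0.722 to 1.62 (median 1.04). At 9 and 12 h all 4 LPS runs were above all 4 mock runs for each, 0.760 to 0.903 (median 0.770) against 0.509 to 0.671 (median 0.612) for Serpinb6 and 1.33 to 1.55 (median 1.38) against 0.722 to 1.26 (median 1.04) for Serpinb1a. Total Serpinb6 over 6 to 12 h did not overlap (log2 0.29 ± 0.06). The deposited normalised ratios turned that difference to -0.13, with the median of all proteins at -0.27. Total Serpinb1a overlapped at 9 and 12 h, at 1.54 to 1.84 (median 1.63) after LPS and 0.936 to 1.60 (median 1.24) in mock. The M/L of Serpinb1a spread widely between replicates in mock, 1.62 and 0.761 at 6 h and 1.26 and 0.722 at 9 h.

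New Serpinb1a over 6 to 12 h lay in the range of its 0 h values or below, and new Serpinb6 was above its 0 h values at 12 h in both treatments. The H/L of Serpinb1a was 0.205 to 0.294 (median 0.245) after LPS and 0.140 to 0.346 (median 0.196) in mock over 6 to 12 h (log2 0.22 ± 0.30), beside 0.384 and 0.230 in the 0 h runs. That of Serpinb6 was 0.125 to 0.205 (median 0.138) against 0.110 to 0.194 (median 0.158) (log2 0.01 ± 0.22), beside 0.142 and 0.0737 at 0 h. At 12 h it was 0.205 and 0.200 after LPS and 0.174 and 0.194 in mock, all above both 0 h runs. The mean heavy share of Serpinb6 in mock was 22.6% at 12 h, against 11.2% at 0 h and a median of 21.4% over all proteins at 12 h. At 24 h new Serpinb6 was 0.273 and 0.274 after LPS and 0.140 and 0.120 in mock (log2 1.08 ± 0.38, or 3.07 with the 0 h signal subtracted). This difference was not called. The H/M ratio of Serpinb6 went the other way at 24 h, at 0.311 to 0.331 after LPS and 0.428 to 0.462 in mock. Its mean heavy share was 24.3% after LPS and 30.8% in mock.

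Granulocyte products moved with time in the same cultures. The 13 granulocyte markers summed to 4.43% to 4.67% of iBAQ at 0 h, 2.07% to 2.24% in mock at 24 h and 1.50% to 1.71% after LPS at 24 h. Over 6 to 12 h the sum was 2.61% to 4.92% (median 3.61%) in mock and 2.99% to 5.17% (median 4.12%) after LPS, which overlapped. Of the 13, Ltf, Ngp, Mpo, Lcn2, S100a8, S100a9 and Chi3l3 were above 0 in all 42 runs, and Prtn3 was at 0 in 23, Mmp9 in 9, Ctsg and Mmp8 in 7 and Elane and Camp in 4. Over mock culture time (12 and 24 h against 0 h) 1 of the 9 tested was called higher and 3 lower, with a median of log2 -0.24. The 3 lower were Chi3l3 (-0.24 ± 0.07) and S100a8 and S100a9, calcium-binding proteins abundant in neutrophils (-0.90 ± 0.11 and -1.10 ± 0.05). Ngp was higher (0.30 ± 0.07), and Mpo (0.13 ± 0.27), Camp (-0.01 ± 0.14), Ltf (-0.15 ± 0.11), Lcn2 (-0.29 ± 0.15) and Mmp8 (-0.48 ± 0.23) did not pass. In total protein at 24 h, LPS minus mock, 6 of the 7 tested were below 0 and Lcn2 was above it. The median was log2 -0.64, with a range from -2.79 ± 0.08 (Ngp) to 0.25 ± 0.17 (Lcn2). In late total protein 4 of the 7 were called lower and 1 higher (S100a9, 0.15 ± 0.04), with a median of log2 -0.39. The part of granulocytes in the mock decline of Serpinb1a and Serpinb6, or in their differences after LPS, was not tested.

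**Figure D3:**
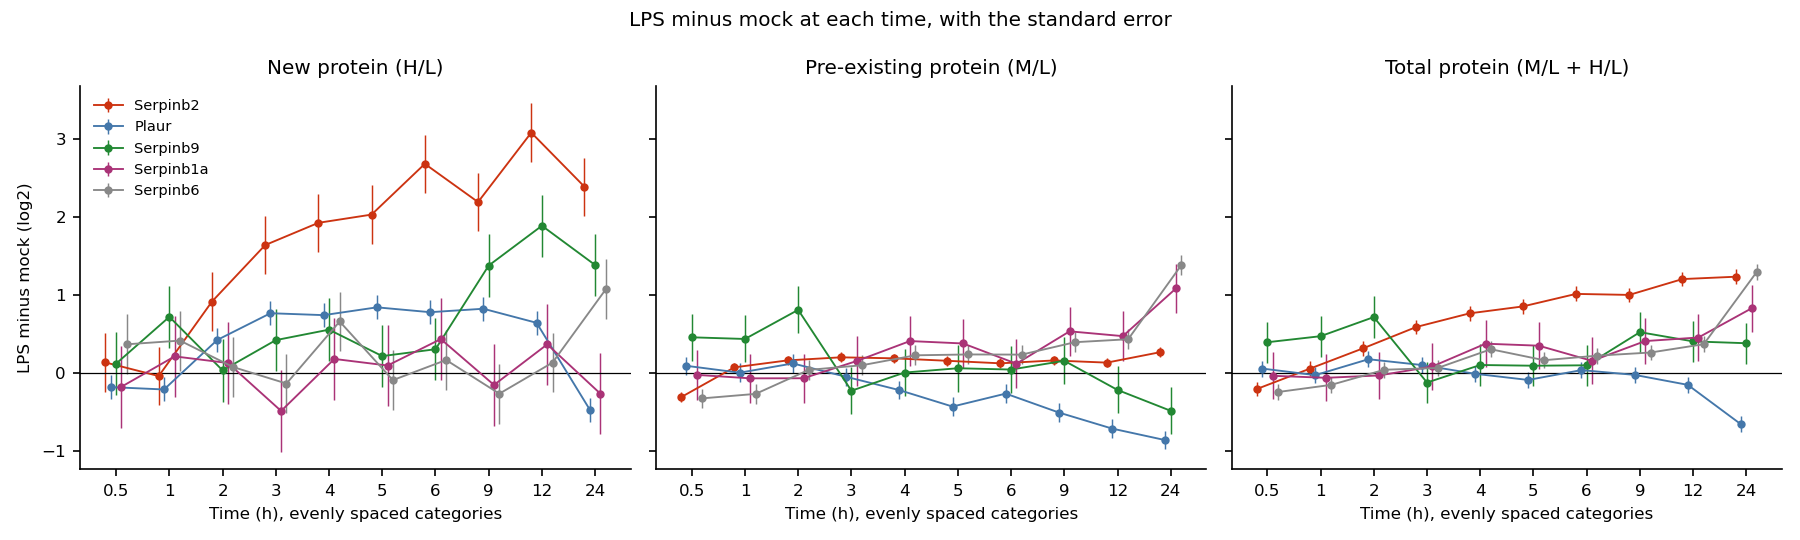
LPS minus mock (log2) in new, pre-existing and total protein at each of the 10 times, as evenly spaced categories in hours, for the 5 members, with points for the difference of 2 against 2 runs and bars for its SE. New Serpinb2 reaches 3.09 at 12 h, Plaur is positive in new protein from 2 to 12 h and negative in pre-existing protein from 4 h, and pre-existing Serpinb6 and Serpinb1a are highest at 24 h.

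The members were selected on these contrasts, so their counts are given beside the share of all proteins called and nothing is read from the comparison. For late new protein 3 of 5 members were called, all higher (Serpinb2, Serpinb9 and Plaur), where 12.3% of 3316 proteins were called, 10.6% higher and 1.75% lower. For late pre-existing protein 2 were called higher (Serpinb2 and Serpinb6) and 1 lower (Plaur), against 17.1% of 3432, 3.53% higher and 13.6% lower. For late total protein 2 were called higher (Serpinb2 and Serpinb6), against 19.8% of 3316, 10.2% higher and 9.59% lower. None was called in early new protein, where 0.475% of 3371 were, 0.356% higher and 0.119% lower. At 24 h 2 were called higher in new protein (Serpinb2 and Serpinb9), against 10.2% of 3095, 7.88% higher and 2.33% lower. In mock total at 12 and 24 h against 0 h 2 were called lower (Serpinb1a and Serpinb6), against 26.1% of 3178, 14.6% higher and 11.5% lower. The median difference of the 5 in late new protein was log2 0.75, beside 0.03 over all proteins tested.

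Replacement in unstimulated cells also differed among the members. The heavy share, which is independent of the reference, can be set beside other proteins. In mock cells at 24 h it was 47.0 and 48.4% for Plaur and 37.6 and 33.7% for Serpinb9, against a median of 30.6% over all proteins. For Serpinb6 it was 31.6 and 30.0%, for Serpinb2 28.7 and 24.2% and for Serpinb1a 37.3 and 14.6%, the last with replicates far apart. Only the Plaur runs lay clear of that median in both replicates by more than 10 points.

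From the M share, M/(H+M), as a log2 slope over 0.5 to 12 h in 18 mock runs, with no account of cell growth, Plaur had a half-time of 34.8 h, between 30.9 and 39.7 h at 2 SE either way. Of 3459 proteins with such a slope, 86.7% were replaced more slowly, and the median half-time of the 2867 with a falling share was 94.0 h. Serpinb6 had 67.0 h (37.1 to 344 h). The slopes of Serpinb2 (-0.00345 ± 0.00499) and Serpinb1a (-0.00974 ± 0.00521 an hour) were within 2 SE of 0, and that of Serpinb9 (-0.00971 ± 0.00485) barely beyond, with a half-time of 103 h that has almost no upper bound. With the 24 h runs added (20 mock runs) the half-times were 32.0 h (30.2 to 34.1 h) for Plaur, 57.9 h (44.5 to 82.6 h) for Serpinb9, 74.2 h (52.0 to 129.8 h) for Serpinb6, 97.0 h (57.7 to 306 h) for Serpinb1a and 163 h (90.3 to 821 h) for Serpinb2. For Serpinb1a the slope of log2 scaled M/L over 0.5 to 12 h was -0.0481 ± 0.0242, also within 2 SE of 0. With the 24 h runs added it was -0.0504 ± 0.0116, against -0.0103 ± 0.0035 for its M share.

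**Figure D4:**
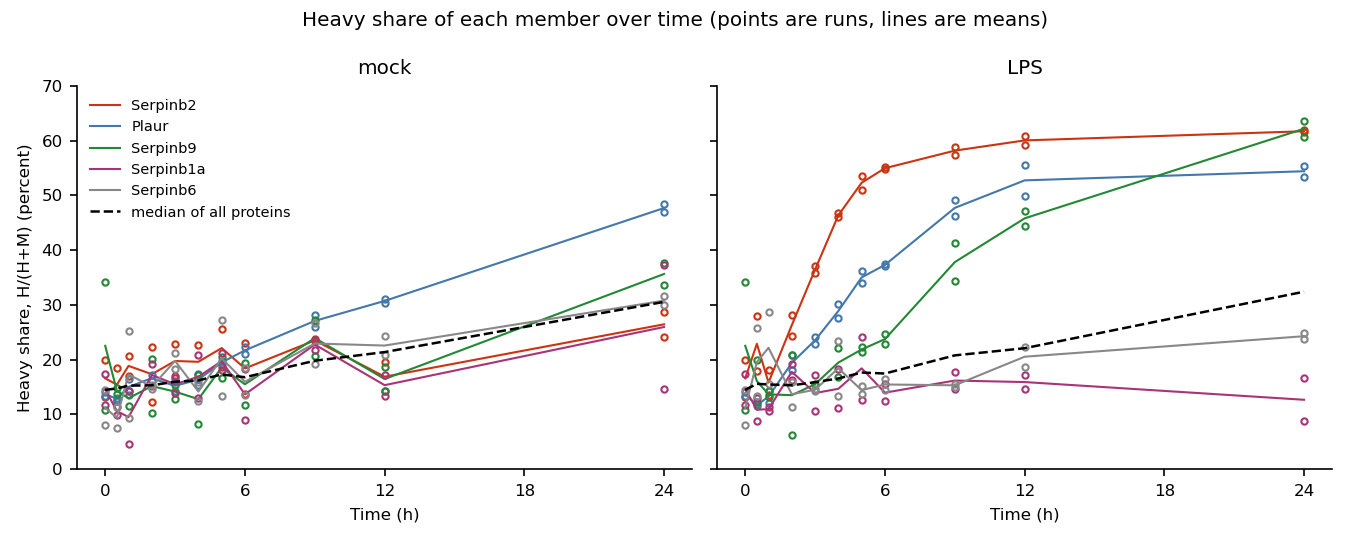
Heavy share, H/(H+M) in percent, against time in hours for the 5 members in mock (left) and LPS (right) cells, with points for runs, lines for means of 2 runs and a dashed line for the median of all proteins. The mock mean of Plaur lies above the median from 4 h, and after LPS Serpinb2, Plaur and Serpinb9 reach 61.7%, 54.4% and 62.2% at 24 h while Serpinb1a stays at 12.7%.

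Proteins of the plasminogen system and partners of the urokinase receptor were taken from a list of 30 names, of which 21 were found and 17 tested late. The proteases Plat and Plg and the receptor ligand Vtn, from the list, headed no group. In late new protein 3 of the 17 rose and 3 fell (median log2 -0.07), and in late total protein 3 rose and 4 fell (median -0.05). Among partners of Plaur, the formyl peptide receptor Fpr2 rose in new protein (log2 2.58 ± 0.28, adjusted p = 5.52e-07). The fibronectin receptor chains Itga5 (log2 1.51 ± 0.20, adjusted p = 3.58e-06) and Itgb1 (log2 1.26 ± 0.17, adjusted p = 5.67e-06) rose as well. Total Itga5 was 0.454 and 0.376 at 0 h and, at 12 h, 1.10 and 1.12 after LPS and 0.476 and 0.346 in mock.

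The chains of the complement receptor Mac-1, Itgam (log2 -0.12 ± 0.13, adjusted p = 0.757) and Itgb2 (log2 -0.03 ± 0.10, adjusted p = 0.948), did not pass the test. The endocytic receptor Lrp1 fell in new (log2 -0.67 ± 0.09, adjusted p = 2.71e-06) and total protein (log2 -0.40 ± 0.04, adjusted p = 2.48e-08). Thrombospondin, Thbs1, fell in pre-existing (log2 -1.38 ± 0.09, adjusted p = 8.79e-11) and total protein (log2 -0.82 ± 0.08, adjusted p = 1.52e-08). The macrophage elastase Mmp12, a metalloprotease, fell most in new protein of these (log2 -1.30 ± 0.14, adjusted p = 1.98e-07). Total Mmp12 was 0.525 and 0.590 at 0 h, 2.50 and 2.66 in mock at 24 h and 0.516 and 0.547 after LPS at 24 h, so its mock level went up over time (log2 1.89 ± 0.12, adjusted p = 5.14e-11).

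Of proteins that bind plasminogen at the cell surface, S100a10 fell in total protein (log2 -0.13 ± 0.03, adjusted p = 0.00666), which became 0.034 without the run factor. Its partner Anxa2 (log2 -0.08 ± 0.05, adjusted p = 0.315) and the enolase Eno1 (log2 0.02 ± 0.04, adjusted p = 0.749) did not pass. With the replicate number as a block Anxa2 passed in pre-existing protein (log2 -0.11, adjusted p = 0.0208), Eno1 in new protein at 24 h (log2 0.46, adjusted p = 0.0345) and S100a10 in the mock change over time (log2 0.13, adjusted p = 0.0205). At 24 h 3 of 16 tested rose in new protein and 2 fell, which were log2 3.51 ± 0.45 for Fpr2, log2 2.24 ± 0.34 for Itga5, log2 1.24 ± 0.30 for Itgb1, log2 -1.51 ± 0.15 for Lrp1 and log2 -3.08 ± 0.24 for Mmp12. None of 16 passed in early new protein, and none had an unadjusted p under 0.05. In mock culture over time 4 of 18 rose (Mmp12, Lrp1, Itgam and Anxa2, of which the last 2 became -0.082 and -0.15 without the run factor). The 2 that fell there were the coagulation factor F13a1 (log2 -0.32 ± 0.11, adjusted p = 0.042) and Eno1 (log2 -0.20 ± 0.06, adjusted p = 0.0107), which became 0.22 and 0.44 with the deposited normalised ratios.

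Of 21 listed names of leukocyte proteases that clade B serpins can meet, 14 were found and 9 tested late. The neutrophil targets of Serpinb1a were sparse, with M/L of Elane in 22 of 42 runs, of Ctsg in 29 and of Prtn3 in 8, and none was tested, and no group was headed by Gzma or Gzmb, the granzymes. In late total protein 1 of 9 rose and 7 fell (median log2 -0.31). The 7 lower after LPS than in mock were the lysosomal cathepsins Ctsb, Ctsc, Ctsd, Ctsh, Ctsl1, Ctss and Ctsz, by log2 -0.23 to -0.36, where Ctsd is an aspartic protease. All 7 were also lower in pre-existing protein (log2 -0.24 to -0.35), and in mock culture they rose over time (log2 0.79 to 1.21). At 12 h both LPS runs of each of the 7 were above both 0 h runs in total protein. Total Ctss was 0.587 and 0.560 at 0 h and, at 12 h, 0.811 and 0.895 after LPS and 1.00 and 1.07 in mock, and total Ctsb 0.516 and 0.535, 0.576 and 0.659 and 0.776 and 0.873. Macrophage markers moved with the cathepsins, as 5 of 7 tested were called lower and 1 higher (Cd14) in late total protein (median log2 -0.46), and 5 of 7 higher and none lower in mock over time (median 0.56). The 8 found, of which Emr1 was at 0 in 10 of 42 runs and the others in none, summed to 0.876% to 1.22% of iBAQ in mock and 0.597% to 1.09% after LPS over 6 to 12 h, and to 1.21% to 1.82% and 0.644% to 0.864% at 24 h. Their part in the cathepsin differences was not tested. New protein of Ctsd (log2 -0.73 ± 0.16, adjusted p = 0.0014) and Ctsh (log2 -0.41 ± 0.13, adjusted p = 0.0309) fell, and that of Ctsb did not pass (log2 -0.38 ± 0.13, adjusted p = 0.0523), though it did with the replicate number as a block (adjusted p = 0.0345).

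Caspases are cysteine proteases of inflammation and cell death. Casp1, which cleaves pro-interleukin-1, rose in new (log2 0.96 ± 0.22, adjusted p = 0.00241) and total protein (log2 0.24 ± 0.07, adjusted p = 0.0121). Casp8, which can start cell death after death receptor signals, rose in new protein at 24 h (log2 1.25 ± 0.27, adjusted p = 0.00235). At 24 h 2 of 9 rose in new protein and 4 fell, and none of 9 passed in early new protein, with none at an unadjusted p under 0.05. Of 34 other serpins 1 was found, Serpinb9b, a close relative of Serpinb9, with ratios in 30 of 42 runs from at most 8 peptide pairs, and it was not tested. Over 6 to 12 h its scaled total was 1.02 to 1.65 (median 1.33) in 5 LPS runs and 1.06 to 2.33 (median 1.25) in 4 mock runs, which overlapped.

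With 1 replicate left out, fewer of these calls passed. That fit pooled the times of a window, such as 6, 9 and 12 h, into 1 group. Its spread thus includes change between times, so a lost call need not mean dependence on a replicate. Of the 9 pathway proteins called in late new protein 4 passed without replicate 1 (Fpr2, Itga5, Itgb1 and Mmp12) and 2 without replicate 2 (Itga5 and Mmp12), the others with adjusted p of 0.117 to 0.446 and 0.0826 to 0.942. Of the 15 called in late total protein 11 and 9 passed, the others at 0.0699 to 0.0954 and 0.0543 to 0.278. Without the run factor 4 of the 9 and 4 of the 15 passed, in both cases Fpr2, Itga5, Itgb1 and Mmp12. Of the 11 called in late pre-existing protein 7 passed without replicate 1, 6 without replicate 2 and 2 without the run factor (Mmp12 and Thbs1). Of the 13 called in mock over time 1 passed without the run factor. With a replicate left out, 1 run remained in a group at 24 h and at 0 h. No count is given for the comparisons that rest on these.

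**Figure D5:**
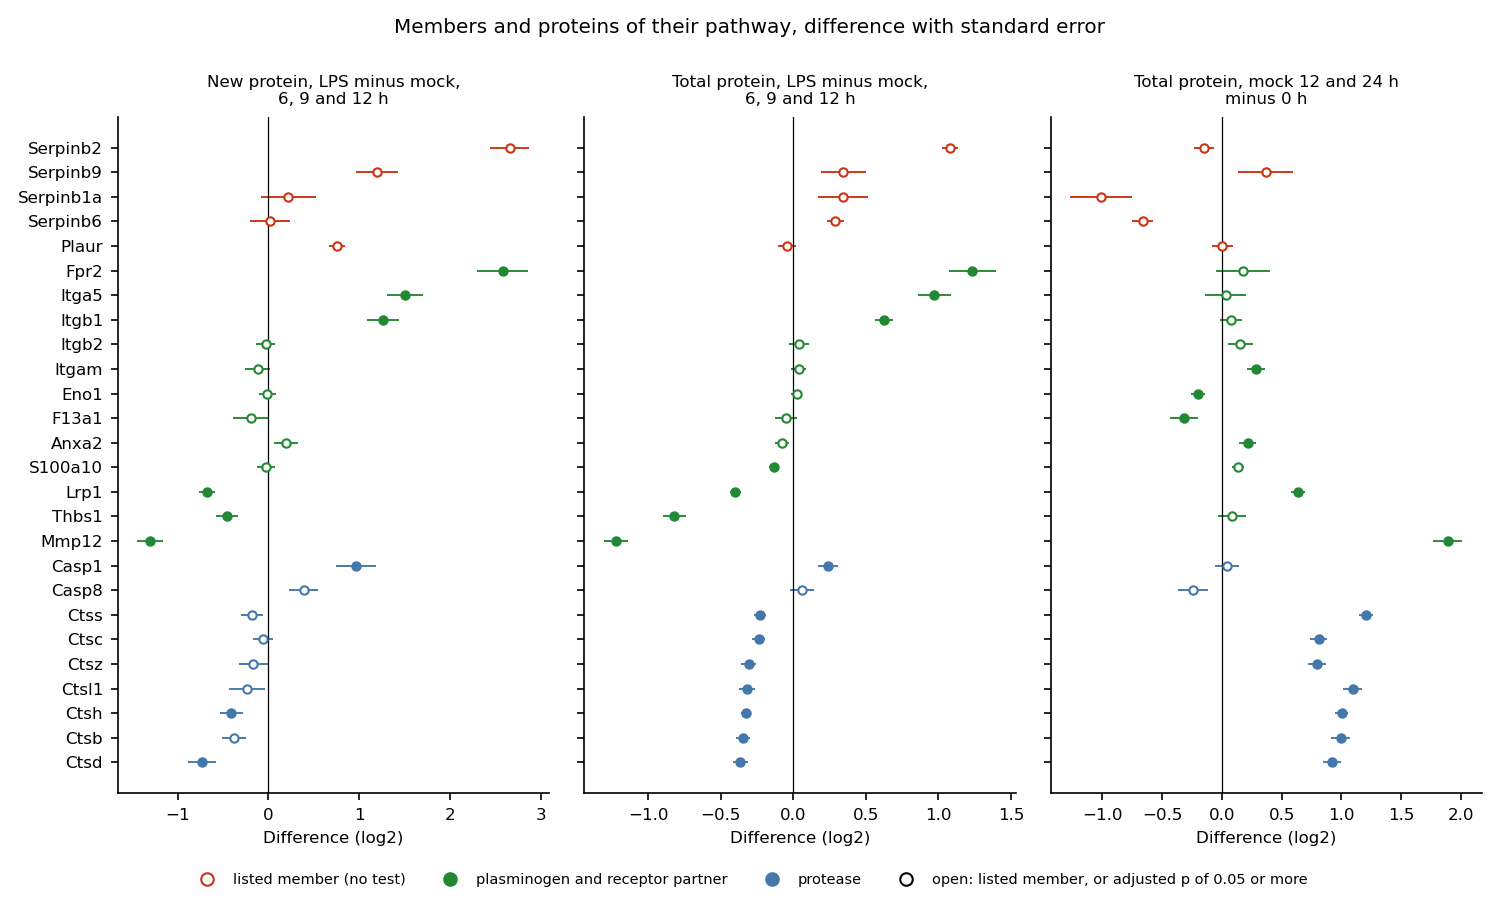
Differences in log2 with SE bars for late new protein (left), late total protein (middle) and mock total at 12 and 24 h minus 0 h (right), with a row for each member (red, no test), plasminogen or receptor partner (green) and protease (blue). Filled points had an adjusted p under 0.05. The 7 cathepsins lie left of 0 in the middle panel and right of 0 in the right panel, where Serpinb1a lies left, as does Serpinb6, which turns with the deposited normalised ratios.

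The proteins whose LPS minus mock differences in H/L ran most like those of a member were found by Pearson r over the 10 times among 2482 proteins, as a description only, since all points share the same runs and run factors. For Serpinb2 they were Sqstm1 (r = 0.963), Pcbp2 (r = 0.961) and Sdcbp (r = 0.955). For Plaur they were Ddx5 (r = 0.957), Tnfaip2 (r = 0.928) and C5ar1 (r = 0.919), and for Serpinb9 they included Gm17352 (r = 0.954) and Dhx58 (r = 0.937). For Serpinb1a they included Gna13 (r = 0.800) and Ndufv1 (r = 0.795). For Serpinb6 they were Ncf1 (r = 0.849), Prkar2b (r = 0.816) and Sh3bp1 (r = 0.811), and for both the highest r was lower. Between the members themselves r was between -0.72 (Plaur and Serpinb6) and 0.55 (Serpinb2 and Serpinb9).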

How the data were processed

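Protein groups were measured by mass spectrometry in cells labelled with 3 forms of arginine and lysine, in 42 trypsin runs. The authors deposited ratios of the channels (M/L, H/L and H/M), the count of peptide pairs behind each ratio, and channel intensities and iBAQ intensities, per the file headers, which are those of a MaxQuant protein group table. Per those headers the un-normalised and the normalised ratio are separate columns, and the un-normalised ones were used. No source used here gives the MaxQuant version or search settings. The submitters' processing notes name the build mm9. Deposited peptide counts give the depth, and deposited intensities were used for digests, markers and an alternative ratio. All value columns used matched a sample's labels, and those of the unlabelled mix the sample of the same run.

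Groups marked as contaminant, reverse or identified by site were left out. Both log2 ratios of a run were lowered by its run factor. limma 3.58.1 in R 4.3.3 was fitted to means of all 21 groups, with Benjamini-Hochberg adjustment over all proteins having at least 4 of 6 values in each arm of a late or early comparison. Python 3.11.15 with numpy 2.4.6, pandas 2.3.3 and matplotlib 3.10.9 was used for the rest. The fits were tested on simulated data with known changes. Noise was drawn independently for each run, unlike the deviations described below. Changes of log2 1 were recovered in 68.4% of cases for late, 65% for early and 21.7% for 24 h new protein. Recovery was 98% for late pre-existing and late total protein and 87.8% for mock over time. False calls were 3.88% to 6.55% of the calls in these 6 comparisons. Replicate numbers come from the labels. In deviations from group means, mock and LPS runs of one time and number went together at all 10 times (r of 0.25 to 0.46 for new, 0.31 to 0.55 for pre-existing and 0.29 to 0.49 for total protein). Over all 210 pairs of groups the median r was 0.09, 0.28 and 0.20, so part of this was shared across times. The numbers were taken to pair the runs, but the main fits did not use the pairing. A fit with the number as a block was an alternative, and it does not model the pairs of each time.

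The listed members, pathway lists and markers were chosen with earlier results of these data known. Named pathway proteins were those called in any comparison, or otherwise up to 3 a list with most peptide pairs. Some proteins are not reported here. Alternatives covered the run factor, the ratio column, filters, the samples in the fit, the block, limma's prior, leaving out each replicate and subtracting the 0 h heavy signal.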

Additional observations from a re-analysis of the deposited data

Results flagged for a closer look

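The effect of LPS on new protein differed between the early (1, 2 and 3 h) and late (6, 9 and 12 h) times for 8 proteins of the pathway lists, by limma's test of late minus early. It was larger late for Fpr2 (log2 2.53 ± 0.40 SE, adjusted p = 0.000165), Itga5 (1.54 ± 0.28, adjusted p = 0.00059), Itgb1 (1.05 ± 0.24, adjusted p = 0.00634) and Casp1 (1.17 ± 0.30, adjusted p = 0.0165). It was lower late for Mmp12 (-1.16 ± 0.20, adjusted p = 0.000289), Lrp1 (-0.66 ± 0.12, adjusted p = 0.000748), Ctsd (-0.74 ± 0.22, adjusted p = 0.0406) and Thbs1 (-0.54 ± 0.17, adjusted p = 0.0478). Of all 3144 proteins tested 198 were higher and 29 lower late.

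Peptides of proteins without a trypsin group were found in the other digests at 0 h, which hold no stimulated sample. Plau, the urokinase itself, had 2 peptides in the LysN digest, 2 in replicate 1 and 1 in replicate 2. Serpinb6b had 1 peptide in AspN, in replicate 2 alone, and Serpinb8 and Serpinb12 had 1 each in LysN, in replicate 1 alone.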

How the results depend on the processing

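The 6 counts of proteins called late in new, pre-existing and total protein, early and at 24 h in new protein, and in mock over time were 408, 588, 656, 16, 316 and 828. Leaving out 1 replicate gave 99 to 153, 84 to 243, 259 to 416, 0 to 3, 12 to 48 and 314 to 379 (for early new protein 153 to 212 at an unadjusted p under 0.05). Summed intensities gave 269, 242, 306, 8, 159 and 372. Without the run factor the counts were 20 for pre-existing, 119 for total, 2 for early, 181 for 24 h and 6 for mock over time. The deposited normalised ratios gave 1003 for pre-existing, 195 for early, 169 for 24 h and 2239 for mock over time. With the contrast's own groups alone they were 306 for pre-existing, 1 for early, 518 for 24 h and 277 for mock over time. Subtracting the 0 h heavy signal gave 216 of 1802 tested late, 6 of 1154 early and 32 of 2461 at 24 h. The cause of these shifts was not tested.

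Scaling also set the direction of the calls. Of the calls in late new protein 85.8% were higher, against 96.8% without the run factor, 74.4% with M/L and H/L centred separately in each run and 23.3% with the normalised ratios. For late pre-existing protein the 20.6% became 37.6% when centred and 54.1% when normalised, and for late total protein the 51.5% became 91.6% without the factor and 23.4% when normalised. For early new protein the 75% became 100% without the factor and 96.9% when normalised, for 24 h the 77.2% became 94.5% and 60.4%, and for mock over time the 56.0% became 100% when normalised. The median of all proteins moved without the factor to 0.20 for late new, 0.15 for late pre-existing, 0.17 for late total, 0.30 for 24 h new and -0.36 for mock over time, and with the normalised ratios to -0.48, 0.03, -0.27, -0.15 and 0.94.

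Of 503 values of the 5 members under alternatives 419 moved by less than 1 SD between replicates, 82 by more, and 2 that had been called turned direction, both with the normalised ratios, which were Serpinb6 in late total protein (-0.13) and in mock over time (0.36). Late new Serpinb2 lay between 1.90 and 2.89 under the alternatives that gave a value (subtracting the 0 h signal gave none for it or for Serpinb9), late new Plaur between 0.40 and 1.32, and late new Serpinb9 between 0.69 and 1.38. Among pathway proteins these turned without the run factor: Anxa2 (-0.15) and Itgam (-0.082) in mock over time, and S100a10 in late pre-existing (0.013) and total protein (0.034). With the normalised ratios these turned: Eno1 (0.44), F13a1 (0.22) and Casp8 (0.65) in mock over time, Itgam (-0.38) and Itgb2 (-0.35) in late total protein, and S100a10 in early new protein (0.88). With the replicate block the 6 counts were 459, 773, 806, 19, 391 and 1022, and 4 calls of named pathway proteins changed, all gained. Depth limits Serpinb9 (from 2 peptide pairs a run) and Plaur (from 5) most, and 24 h rests on 2 runs an arm.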

Other observations

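At 0 h the digests gave different ranks to the same serpin. Serpinb2 rested on 28 peptides in trypsin, with iBAQ above 88.1% and 86.6% of the proteins detected, and on 2 peptides in AspN (above 2.51% and 18.6%) and 2 in LysN (above 14.1% and 20.9%). Serpinb9 was above 48.8% and 40.7% of proteins in trypsin, 67.9% and 62.9% in AspN and 51.3% and 50.5% in LysN. Plaur was above 67.9% and 79.5% in trypsin and 79.6% and 85.0% in AspN, on 2 AspN peptides. Serpinb1a was above 86.3% and 85.7% in trypsin, 63.4% and 32.8% in AspN (3 peptides) and 75.5% and 64.7% in LysN. Serpinb6 was above 84.8% and 79.7% in trypsin, 79.1% and 55.4% in AspN and 74.6% and 52.9% in LysN. Plau in LysN was above 16.1% and 8.08% of proteins.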
